A study of Mus musculus with 9 samples.

Results

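Interferon-induced genes were followed across small blood vessels of mouse brain at 2 ages and the embryonic brain tissue around them. A list of 42 genes was used, made up of interferon receptor chains, the transcription factors that act below them and genes that interferons switch on. For 38 of the 42, of 18194 genes in the series, at least 1 probe set names that gene and no other, and where there were several, the one with the largest average across all 9 arrays stood for the gene. Tgtp1, Gbp4 and Isg15 are named only by probe sets that name several genes, and Ifi44 had no listed probe set, so these 4 were not analysed here. Each of 3 groups had 3 arrays, 1 per biological replicate. Embryonic microvascular fragments and the embryonic rest of brain, the tissue left without the fragments, came from NMRI embryos at embryonic day 18.5, whose sex the labels do not give. Adult microvascular fragments came from 2 males and 1 female, aged 1 year, whose background was mixed C57/SV129. No treatment or genetic change is given for any group. How the fragments were isolated is not given in the sources used here, and for replicate 3 of rest of brain 1 label gives another embryonic day than the rest. RNA of the embryonic samples was purified with a micro kit and that of the adult samples with a mini kit. Age, strain and kit thus cannot be told apart in any comparison of adult with embryonic samples. Below, "with age" and "between the ages" only name the comparison of adult with embryonic fragments and do not credit age.

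Type I interferons act through a receptor made of IFNAR1 and IFNAR2, and interferon gamma through one made of IFNGR1 and IFNGR2. Janus kinases at these receptors phosphorylate STAT proteins. A complex that holds STAT2 and IRF9, called ISGF3, then binds a promoter sequence known as the interferon-stimulated response element (ISRE), and the gamma-activated site (GAS) is the promoter element of the interferon gamma response. Many of the genes switched on in this way encode antiviral effectors. Vascular cells and microglia in the brain both carry interferon receptors.

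Promoters are shown here because many members, among them Ifit genes and GTPase genes with large steps between the ages, hold these elements. The ISRE core was searched on both strands as GAAA, any 2 bases and GAAA again, which on the other strand reads TTTC, any 2 bases and TTTC. GAS was searched as TTCNNNGAA, where N is any base, which is its own reverse complement. The windows run from 250 bases before to 50 bases after each annotated start in RefSeq (GRCm38.p6). Of the 38 members, 31 had such an entry. An ISRE core was found for 15 of them (48.4%), and GAS for 11 (35.5%), where a gene with several promoters counts once. Among all 27025 genes with a promoter entry, 3.99% held an ISRE core and 9.55% held GAS. Counted per promoter, it was 15 of 36 for the members (41.7%) against 3.44% of all 32851 promoters for the ISRE core, and 11 of 36 (30.6%) against 8.3% for GAS. A match is a run of letters and not evidence that a factor binds there. The stretches below, chosen after the matches were seen, are from 2 Ifit genes and the 6 GTPase genes with an entry. They are written 5′ to 3′ on the strand of the gene, with the letters of ISRE and GAS matches in capitals.
Ifit1, chr19:34640773-34640825, + strand: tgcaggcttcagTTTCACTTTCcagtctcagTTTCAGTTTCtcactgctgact
Ifit3, chr19:34583361-34583428, + strand: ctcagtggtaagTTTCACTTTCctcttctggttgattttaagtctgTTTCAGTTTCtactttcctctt
Igtp, chr11:58199499-58199543, + strand: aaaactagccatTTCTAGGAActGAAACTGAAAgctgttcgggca
Irgm2, chr11:58214890-58214934, + strand: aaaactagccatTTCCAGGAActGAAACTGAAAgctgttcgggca
Irgm1, chr11:48871423-48871462, - strand: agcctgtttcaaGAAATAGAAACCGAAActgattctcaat
Gbp2, chr3:142620592-142620625, + strand: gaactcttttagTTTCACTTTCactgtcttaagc
Gbp3, chr3:142559987-142560026, + strand: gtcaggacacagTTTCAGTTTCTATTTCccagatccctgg
Gbp7, chr3:142530271-142530304, + strand: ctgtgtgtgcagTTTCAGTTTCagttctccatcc

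Ifit1 and Ifit3 each held 2 separate ISRE cores, beginning 104 and 85 bases before the start in Ifit1, and 156 and 122 bases before it in Ifit3. In Irgm1 and Gbp3 the 2 matches overlap, so a single run of letters fits the core at both positions. The stretches of Igtp and Irgm2 are identical at 44 of 45 bases, and in both a GAS begins 11 bases before the ISRE core. Gbp7 held GAS matches too, beginning 106 and 87 bases before its start and thus outside the stretch shown. All 6 of these GTPase genes held an ISRE core, and 0 of the 4 receptor genes did. Rsad2 had an ISRE core beginning 120 bases before its start, Ifitm2 one at 46 bases and Stat2 one at 222 bases. Bst2 had overlapping matches at 130 and 124 bases, and its GAS begins at 136 and overlaps the first of them. In Ddx58, Ifih1 and Ifitm3 the ISRE matches lie after the start, as does a GAS match of Ifitm3. Matches to GAS without an ISRE core were found for Ifnar1, Ifnar2, Irf1, Irf8, Ifit2 and Ifi35. Neither element was found for Dtx3l, Ifitm1, Ifngr1, Ifngr2, Irf7, Irf9, Oasl1, Oasl2, Trim25 and Xaf1. Of these, Irf7 and Oasl2 had large steps between the ages as well (3.18 and 2.62).

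**Figure D1:**
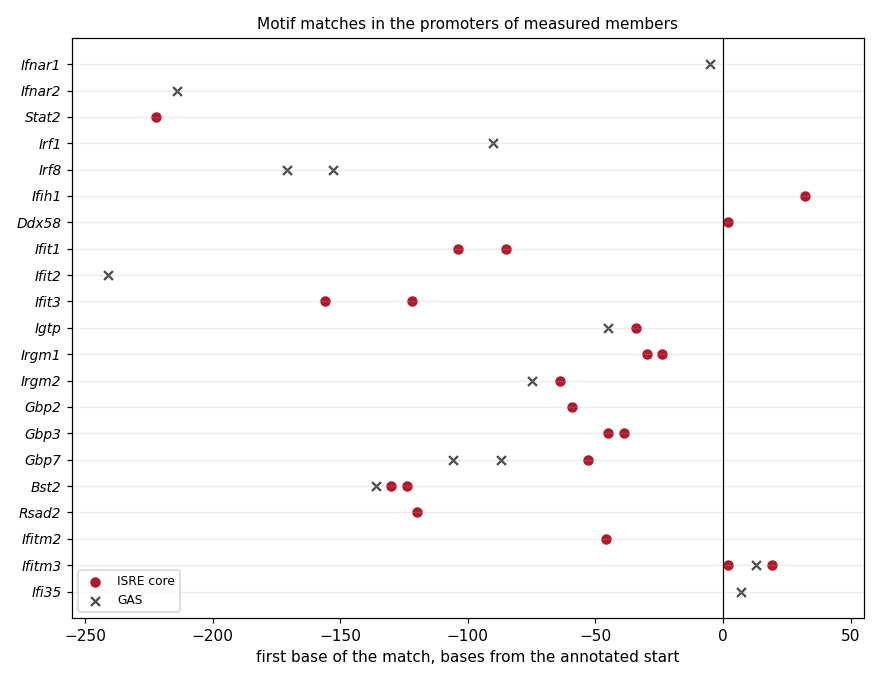
Position of each ISRE core (circles) and GAS match (crosses) in the promoters of the measured members that hold one, with the first base of the match on the horizontal axis in bases from the annotated start and 1 gene per row. The matches of the GTPase genes Igtp to Gbp7 lie before the start, with ISRE cores between 64 and 24 bases before it.

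Values are log2 intensities after GCRMA, in which an array under 4 is treated as background. A gene was tested where at least 3 of the 9 arrays reached 4, which held for 34 of the 38 members and 12009 genes in all. Differences are log2 differences of group means ± the standard error (SE) of a limma fit over all 9 arrays. Calls were made where the adjusted p was under 0.05 (Benjamini-Hochberg over the 12009 genes). Where a group was under 4 on all 3 arrays, the other group's mean was set against 4 and the fold is given as "at least". Stat2 was under 4 on every array and is not detected. Oasl1, Mx1 and Mx2 reached 4 on 2, 1 and 2 adult arrays and on no embryonic array, and were not tested.

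Embryonic fragments read far above the embryonic rest of brain for most members. Of the 34 tested members, 28 were higher in fragments (82.4%), Ifit2 was lower and 5 were not called. Among all tested genes 28.9% were higher and 37.2% were lower. The members' median difference was 3.76, or 3.34 with members under 4 in 1 group set to their bound, against -0.10 over all genes. The 28 include Ifit1, whose embryonic arrays were all under 4, and its call thus compares background values. Also among the 28, Irf7, Usp18, Oasl2, Irgm1, Irgm2 and Parp14 were under 4 on every rest of brain array. They passed the filter through fragment arrays alone, so against rest of brain they could not come out lower. In such bulk samples, fewer cells of a type and less RNA per cell cannot be told apart.

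Adult fragments read higher still for most members. Between adult and embryonic fragments 25 of the 34 were higher in adults (73.5%), Ifngr2 was lower and 8 were not called. Of all genes, 27.4% were higher and 29.7% lower. Ifit1, Ifit3 and Iigp1, all among the 25, were under 4 on every embryonic array and passed the filter through the adult arrays alone. Here and against rest of brain they could only come out higher in adults. The members' median difference was 1.63 against -0.02 over all genes. For 22 of the 25 the difference was at least 2-fold, where 1891 of all 12009 tested genes were called higher by at least 2-fold. Both comparisons use the embryonic fragment arrays. Adult fragments against embryonic rest of brain gave 32 higher members (94.1%), Ifngr2 lower and Xaf1 not called, where 33.1% of all genes were higher and 42.9% lower. Of the 32, 9 were under 4 on every rest of brain array and could not come out lower. In this last comparison tissue differs together with age, strain and kit.

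**Figure D2:**
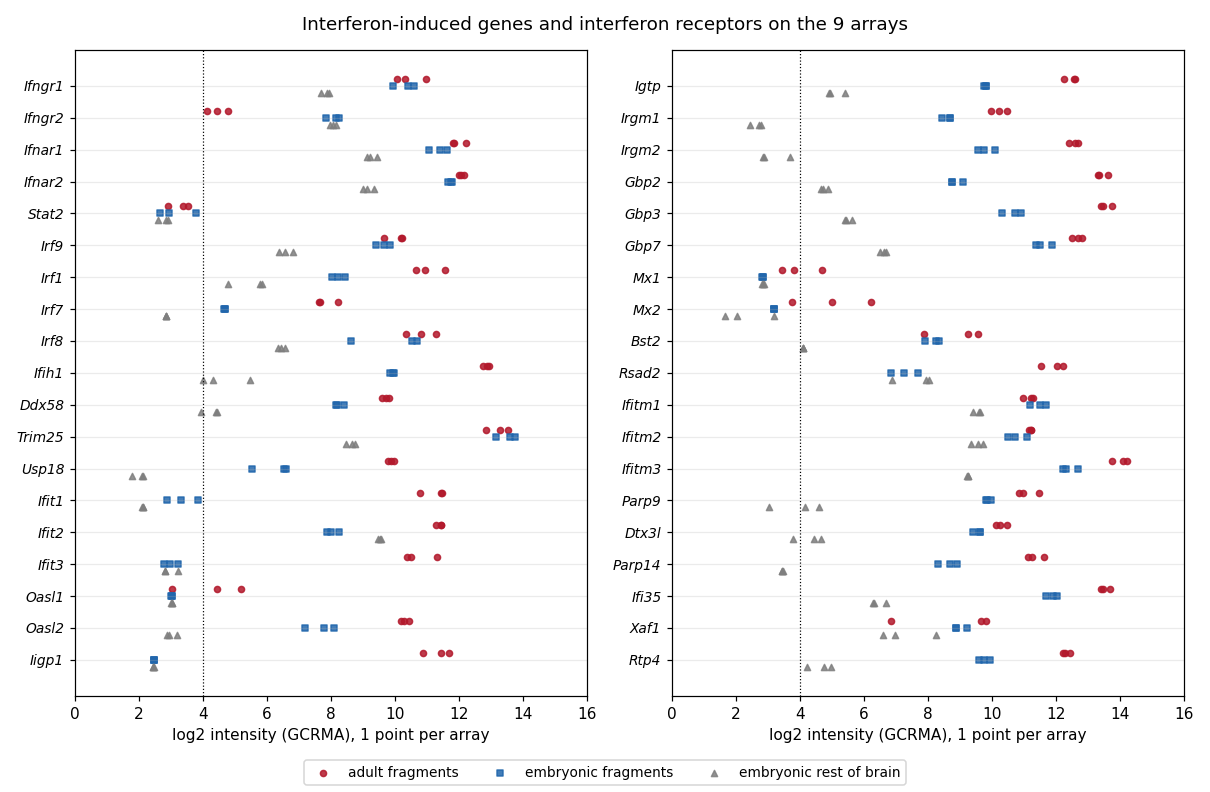
Log2 intensity (horizontal axis, GCRMA) of the 38 measured members, 1 row per gene and 1 point per array, for adult fragments (circles), embryonic fragments (squares) and embryonic rest of brain (triangles). The dotted line is at 4, under which an array counts as background, and in most rows the triangles lie lowest and the circles highest.

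Set side by side, 21 members were called higher both in embryonic fragments against rest of brain and in adult against embryonic fragments. Their difference between adult fragments and rest of brain is the sum of those, so its call adds no separate support. The share of all genes with this pattern was not counted, and for Ifit1 both embryonic groups were at background. The 21 were Ifnar1, Ifnar2, Irf1, Irf7, Ifih1, Ddx58, Usp18, Ifit1, Oasl2, Igtp, Irgm1, Irgm2, Gbp2, Gbp3, Gbp7, Ifitm3, Parp9, Dtx3l, Parp14, Ifi35 and Rtp4. Ifngr1, Irf9, Irf8, Trim25, Bst2, Ifitm1 and Ifitm2 were higher in fragments of either age than in rest of brain and not called between the ages. Ifit3, Iigp1 and Rsad2 were called for adult fragments alone, against each embryonic group. Ifit2 was lower in embryonic fragments than in rest of brain and highest in adults. Ifngr2 was lower in adults than in each embryonic group, and Xaf1 was called in none.

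**Figure D3:**
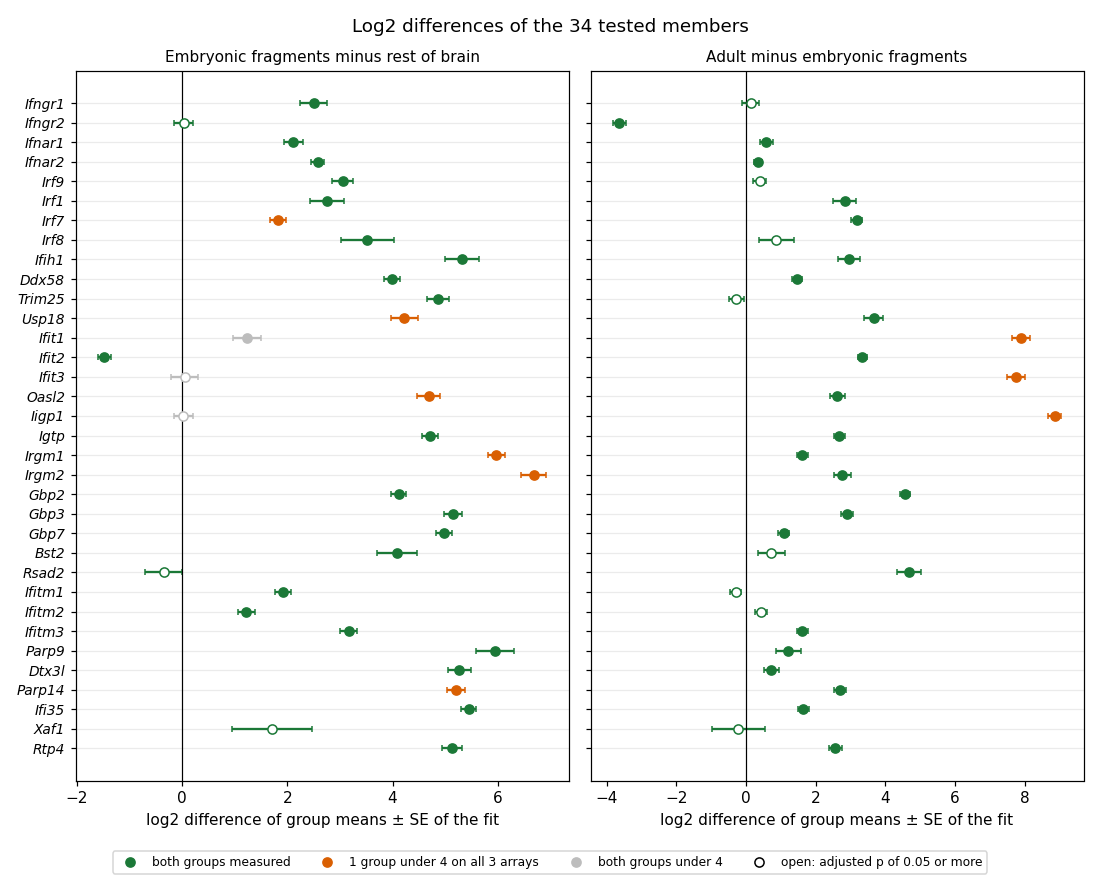
Log2 difference of group means ± SE of the fit for the 34 tested members, embryonic fragments minus rest of brain on the left and adult minus embryonic fragments on the right. Filled points were called, and orange points mark a group under 4 on all 3 arrays, where the true difference is known only as a bound. On the left 28 filled points lie above 0 and on the right 25, with Ifit2 and Ifngr2 as the filled points below 0.

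The 4 receptor chains did not move together. Ifngr1, the ligand-binding chain for interferon gamma, read 9.96, 10.43 and 10.61 in embryonic fragments and 7.93, 7.89 and 7.69 in rest of brain. These arrays did not overlap, and the difference was 2.50 ± 0.25 (5.65-fold, adjusted p = 2.39e-05). Adult fragments read 10.09, 10.31 and 10.99, which overlapped the embryonic ones (0.13 ± 0.25, adjusted p = 0.701). Ifngr2, its partner chain, went another way. It read 7.85, 8.27 and 8.16 in embryonic fragments and 8.16, 7.96 and 8.07 in rest of brain, with overlapping arrays (0.03 ± 0.18, adjusted p = 0.896). In adult fragments it read 4.44, 4.14 and 4.79, close to background and below every embryonic array. The adult value was 12.5-fold lower than in embryonic fragments (-3.64 ± 0.18, adjusted p = 8.38e-07), and 12.2-fold lower than in rest of brain (adjusted p = 1.82e-07). The other probe set of Ifngr2 was under 4 on all arrays and was not tested.

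The chains of the type I receptor were both higher in fragments. Ifnar1 read 11.64, 11.43 and 11.08 in embryonic fragments and 9.24, 9.13 and 9.45 in rest of brain (2.11 ± 0.18, adjusted p = 7.79e-06). Ifnar2 read 11.80, 11.65 and 11.75 against 9.13, 9.0 and 9.35 (2.58 ± 0.12, adjusted p = 1.41e-07). Neither gene's arrays overlapped between these groups. Adult fragments were slightly higher again, with Ifnar1 at 11.84, 12.24 and 11.82 (0.58 ± 0.18, adjusted p = 0.0219). Ifnar2 was at 12.08, 12.01 and 12.17 there (0.35 ± 0.12, adjusted p = 0.0326). For Ifnar1 the call was lost without adult replicate 2 (adjusted p = 0.0711) or embryonic fragment replicate 3 (0.0755), with the 2 groups fitted alone (0.0508) and with the mean of its probe sets (0.216). For Ifnar2 it was lost without adult replicate 1 (0.0656) or 3 (0.0736), without embryonic fragment replicate 2 (0.103) or 3 (0.0701), and with the mean of its probe sets (0.123).

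Among the transcription factors, Stat2, the STAT protein particular to type I signalling, was at 2.61 to 3.80 on the 9 arrays and its other probe set was under 4 as well. Irf9, the DNA-binding part of ISGF3, read 9.84, 9.42 and 9.65 in embryonic fragments. In rest of brain it read 6.56, 6.83 and 6.38, below every fragment array (3.05 ± 0.20, 8.28-fold, adjusted p = 1.21e-06). Its adult values of 9.65, 10.23 and 10.19 overlapped the embryonic ones (0.39 ± 0.20, adjusted p = 0.126). Without adult replicate 1 the adult difference was called (0.57, adjusted p = 0.0273). Irf1, an interferon regulatory factor induced by interferon gamma, climbed in 2 steps. It read 4.80, 5.85 and 5.80 in rest of brain, 8.22, 8.45 and 8.04 in embryonic fragments and 10.66, 10.95 and 11.59 in adult fragments, with no overlap. The first step was 2.75 ± 0.32 (adjusted p = 6.84e-05) and the next 2.83 ± 0.32 (7.1-fold, adjusted p = 1.09e-04).

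Irf7, which drives the type I interferon genes themselves, was under 4 in rest of brain, at 2.86, 2.84 and 2.85. It stood just above background in embryonic fragments at 4.69, 4.65 and 4.69, at least 1.59-fold higher (adjusted p = 9.62e-06). Adult fragments read 7.63, 7.67 and 8.24, apart from every embryonic array (3.18 ± 0.16, 9.04-fold, adjusted p = 8.77e-07). Irf8, a factor of myeloid cells, read 6.45, 6.56 and 6.34 in rest of brain. Embryonic fragment replicate 1 read 8.65 for it and replicates 2 and 3 read 10.71 and 10.55 (3.52 ± 0.50 above rest of brain, adjusted p = 2.39e-04). The summed level of 17 microglia and macrophage genes was lowest on replicate 1 as well, with 16.08 there and 17.27 and 17.44 on replicates 2 and 3, and its part in the Irf8 values was not tested. Adult values of Irf8, 10.83, 10.36 and 11.30, overlapped the embryonic ones (0.86 ± 0.50, adjusted p = 0.176).

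The RNA sensors were all higher in embryonic fragments than in rest of brain. Ifih1, which encodes MDA5, a sensor of long double-stranded RNA, read 9.97, 9.93 and 9.86 in embryonic fragments against 4.02, 5.48 and 4.32 (5.31 ± 0.32, 39.8-fold, adjusted p = 7.91e-07). Adult fragments read 12.96, 12.89 and 12.77 for it (2.95 ± 0.32, 7.74-fold, adjusted p = 8.02e-05). The 3 groups of Ifih1 arrays were fully apart. Ddx58, which encodes RIG-I, a sensor of RNA with an uncapped end, read 4.45, 3.95 and 4.40 in rest of brain, 1 array being under 4. It read 8.40, 8.20 and 8.17 in embryonic fragments (3.99 ± 0.15, 15.9-fold, adjusted p = 4.4e-08) and 9.74, 9.60 and 9.82 in adult fragments (1.46 ± 0.15, 2.75-fold, adjusted p = 6.41e-05). Again no arrays overlapped between groups. Trim25, a ubiquitin ligase that acts on RIG-I, read 13.75, 13.59 and 13.16 in embryonic fragments and 8.66, 8.77 and 8.49 in rest of brain (4.86 ± 0.21, 29.1-fold, adjusted p = 8.37e-08). Its adult values, 13.28, 12.87 and 13.53, overlapped the embryonic ones (-0.27 ± 0.21, adjusted p = 0.291). With the mean of its probe sets Trim25 was called lower in adults (-1.22, adjusted p = 2.1e-04).

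Usp18, a protease that removes ISG15 from proteins and dampens the type I receptor, was higher at both steps. It was under 4 in rest of brain at 2.12, 2.09 and 1.79 and read 6.60, 5.54 and 6.53 in embryonic fragments, at least 4.67-fold higher (adjusted p = 9.66e-07). Adult fragments read 9.79, 9.87 and 9.99, above every embryonic array (3.66 ± 0.26, 12.6-fold, adjusted p = 6.95e-06).

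The IFIT genes, whose proteins bind viral RNA, were all higher in adult than in embryonic fragments. Ifit1 read 11.44, 11.48 and 10.78 in adult fragments and 3.86, 2.89 and 3.31 in embryonic fragments, at least 151-fold higher in adults (adjusted p = 7.94e-08). Ifit3 read 10.39, 10.50 and 11.33 in adults and 2.78, 2.99 and 3.23 in embryonic fragments, at least 107-fold higher (adjusted p = 7.74e-08). Rest of brain was under 4 for both, so that these genes were above background on the adult arrays alone. Ifit2 had measured values in all groups. It read 9.49, 9.52 and 9.56 in rest of brain, 8.25, 7.87 and 8.01 in embryonic fragments and 11.28, 11.46 and 11.43 in adult fragments, without overlap. It was therefore 2.78-fold lower in embryonic fragments than in rest of brain (-1.48 ± 0.12, adjusted p = 5.91e-06) and 10.1-fold higher in adult than in embryonic fragments (3.34 ± 0.12, adjusted p = 1.16e-07). Adults exceeded rest of brain 3.65-fold (adjusted p = 9.49e-07).

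The OAS-like proteins resemble the enzymes that make 2-5A, a signal that activates RNase L. Oasl2 read 10.20, 10.30 and 10.44 in adult fragments, 7.19, 7.79 and 8.10 in embryonic fragments and 2.88, 2.95 and 3.19 in rest of brain. The groups did not overlap. Embryonic fragments were at least 12.9-fold above rest of brain (adjusted p = 1.55e-07) and adults a further 6.16-fold (2.62 ± 0.22, adjusted p = 1.68e-05). Oasl1 reached 5.19 and 4.44 on adult replicates 1 and 3, and read 3.03 on adult replicate 2, a background value like those of the embryonic arrays.

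The immunity-related GTPases (IRG) and guanylate-binding proteins (GBP) act on membranes around intracellular pathogens. All 7 measured members were higher in adult than in embryonic fragments, and 6 of them were higher in embryonic fragments than in rest of brain. The exception was Iigp1, an effector IRG protein, which read 11.44, 10.89 and 11.71 in adults and stayed at 2.48 to 2.49 in embryonic fragments and 2.45 to 2.48 in rest of brain. Adults were at least 162-fold above embryonic fragments (adjusted p = 6.48e-09), and its other probe set was called in the same direction. The regulatory IRG genes were already far above rest of brain in embryos. Irgm2 read 10.10, 9.76 and 9.56 in embryonic fragments against 2.83, 3.68 and 2.86 (at least 56.0-fold, adjusted p = 3.1e-08), and 12.41, 12.61 and 12.68 in adults (2.76 ± 0.24, adjusted p = 2.26e-05). Irgm1 read 8.69, 8.45 and 8.69 against 2.78, 2.72 and 2.43 (at least 24.4-fold, adjusted p = 5.5e-09), and 10.23, 9.98 and 10.48 in adults (1.62 ± 0.16, adjusted p = 4.51e-05). No arrays of these 2 genes overlapped between groups. Igtp, the neighbour of Irgm2 with the nearly identical promoter stretch, was 26.2-fold above rest of brain in embryonic fragments (4.71 ± 0.16, adjusted p = 2.02e-08). Its adult arrays were 6.4-fold higher still (2.68 ± 0.16, adjusted p = 2.18e-06).

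Of the 3 GBP members, Gbp2 had the largest difference between the ages. It read 13.35, 13.33 and 13.62 in adult fragments, 9.11, 8.75 and 8.77 in embryonic fragments and 4.66, 4.73 and 4.88 in rest of brain. The groups were fully apart, with adults 23.6-fold above embryonic fragments (4.56 ± 0.14, adjusted p = 5.03e-08) and these 4.11 ± 0.14 above rest of brain (adjusted p = 2.23e-08). The identifier of this probe set marks probes that may bind related transcripts, and the other Gbp2 probe set was called in the same directions. Gbp3 read 13.41, 13.48 and 13.75 in adults, 10.73, 10.31 and 10.92 in embryonic fragments and 5.42, 5.44 and 5.63 in rest of brain. It was 35.7-fold higher in embryonic fragments than in rest of brain (5.16 ± 0.17, adjusted p = 2.03e-08) and 7.43-fold higher in adults again (2.89 ± 0.17, adjusted p = 2.38e-06). Its groups did not overlap either. Gbp7 differed by 4.97 ± 0.15 from rest of brain (adjusted p = 1.2e-08) and by 1.08 ± 0.15 with age (adjusted p = 3.64e-04).

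The membrane effectors were split. Rsad2, which encodes viperin, an enzyme that makes a chain-terminating nucleotide, read 12.03, 12.22 and 11.54 in adult fragments and 6.84, 7.25 and 7.69 in embryonic fragments. The difference was 25.4-fold (4.67 ± 0.35, adjusted p = 8.26e-06). Rest of brain read 6.88, 8.03 and 7.93, which overlapped the embryonic fragments (-0.35 for fragments minus rest, adjusted p = 0.402). Bst2, the virus tether called tetherin, read 7.91, 8.26 and 8.34 in embryonic fragments and 4.09, 4.08 and 4.09 in rest of brain (4.08 ± 0.38, 16.9-fold, adjusted p = 1.4e-05). Its adult arrays read 7.87, 9.25 and 9.56, of which replicate 1 lay below the embryonic arrays (0.73 ± 0.38, adjusted p = 0.134). Without adult replicate 1 the difference was 1.24 (adjusted p = 5.62e-04).

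The interferon-induced transmembrane proteins block viral entry at membranes. Ifitm3 read 12.31, 12.22 and 12.70 in embryonic fragments, 9.27, 9.22 and 9.26 in rest of brain and 13.76, 14.09 and 14.24 in adult fragments. It was 8.97-fold above rest of brain in embryonic fragments (3.17 ± 0.16, adjusted p = 2.91e-07), and 3.07-fold higher in adults (1.62 ± 0.16, adjusted p = 5.26e-05), with no overlap. Ifitm1 and Ifitm2, which lie beside it in the genome, differed less. Ifitm1 read 11.19, 11.52 and 11.68 in embryonic fragments and 9.41, 9.63 and 9.61 in rest of brain (1.91 ± 0.15, adjusted p = 5.2e-06), and its adult values were not called apart from the embryonic ones (-0.29, adjusted p = 0.133). Without embryonic fragment replicate 1 they were called lower (-0.43, adjusted p = 0.036). Ifitm2 was 1.22 ± 0.17 above rest of brain in embryonic fragments (adjusted p = 1.78e-04), and its difference with age was 0.43 ± 0.17 (adjusted p = 0.0539). That difference was called without embryonic fragment replicate 3 (0.59, adjusted p = 0.0139), with cyclic loess (0.56, adjusted p = 0.0192), with a trended prior (adjusted p = 0.0426) and in the fit of probe set means (adjusted p = 0.0484). The dynamin-like GTPase genes Mx1 and Mx2 were near background. Mx1 reached 4.68 on adult replicate 3, and Mx2 reached 5.01 and 6.23 on adult replicates 1 and 3.

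PARP9 and DTX3L form a complex that joins ADP-ribosylation and ubiquitination, and their genes lie next to each other. Parp9 read 9.83, 9.83 and 9.97 in embryonic fragments and 3.04, 4.15 and 4.60 in rest of brain, 1 array being under 4 (5.95 ± 0.36, 61.7-fold, adjusted p = 7.72e-07). Dtx3l read 9.62, 9.43 and 9.62 against 4.64, 4.43 and 3.78, again with 1 array under 4 (5.27 ± 0.21, 38.6-fold, adjusted p = 5.96e-08). Neither overlapped between these groups. The steps with age were small, 1.21 ± 0.36 for Parp9 (adjusted p = 0.0181) and 0.73 ± 0.21 for Dtx3l (adjusted p = 0.0174). The Parp9 call was lost without adult replicate 3 (adjusted p = 0.0586). That of Dtx3l was lost without adult replicate 2 (0.0578) or embryonic fragment replicate 2 (0.0575). Parp14, an ADP-ribosyltransferase whose gene adjoins Dtx3l, read 3.45, 3.43 and 3.44 in rest of brain, 8.33, 8.91 and 8.71 in embryonic fragments and 11.15, 11.27 and 11.62 in adults. It was at least 25.1-fold higher in embryonic fragments than in rest of brain (adjusted p = 1.93e-08), and 6.48-fold higher in adults again (2.70 ± 0.17, adjusted p = 3.63e-06).

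Ifi35, a leucine zipper protein that pairs with Nmi, read 12.02, 11.92 and 11.70 in embryonic fragments and 6.28, 6.70 and 6.33 in rest of brain (5.44 ± 0.15, 43.5-fold, adjusted p = 6.62e-09). Adults read 13.42, 13.48 and 13.68 (1.64 ± 0.15, adjusted p = 2.95e-05). Rtp4, a receptor transporter protein, read 9.60, 9.75 and 9.94 in embryonic fragments against 4.21, 4.96 and 4.74 (5.12 ± 0.19, 34.9-fold, adjusted p = 3.71e-08). Both genes were apart in all 3 groups, and the adult Rtp4 values of 12.29, 12.43 and 12.24 were 5.89-fold higher (2.56 ± 0.19, adjusted p = 8.48e-06). Xaf1, a partner of the apoptosis inhibitor XIAP, read 9.80, 9.66 and 6.84 in adults and 8.87, 8.86 and 9.22 in embryonic fragments. Adult replicate 3 thus stood below all embryonic fragment arrays, and the difference was -0.22 (adjusted p = 0.846). Without that array it was 0.75 (adjusted p = 0.182). Against rest of brain, at 8.25, 6.97 and 6.60, embryonic fragments had a difference of 1.71 ± 0.76 (adjusted p = 0.0751), which was called without adult replicate 3 (adjusted p = 0.00495) or rest of brain replicate 1 (0.0499). With the replicate number as a block it was called over the 6 embryonic arrays (adjusted p = 0.0234).

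Probe sets of a single gene disagreed in several cases, and for Xaf1 the choice decided the result. Its other probe set read 11.96, 12.20 and 12.95 in adults and 3.35, 3.37 and 3.54 in embryonic fragments, apart by far. In a fit of all probe sets it was at least 331-fold higher in adults (adjusted p = 2.38e-08), and the mean of both Xaf1 probe sets gave a difference of 4.37 (adjusted p = 7.24e-06). Trim25 had a probe set at 6.85, 6.92 and 7.29 in adults and 9.35, 10.11 and 10.13 in embryonic fragments, called lower in adults (-2.84 ± 0.24, adjusted p = 2.34e-05), beside 2 that were not called. For Ddx58 the next probe set read 8.42, 8.17 and 8.76 in adults against 8.33, 8.16 and 8.20 (adjusted p = 0.393). For Rsad2 the next one gave the same call, at 8.27, 8.91 and 7.73 in adults with embryonic fragments under 4 (at least 19.7-fold, adjusted p = 2.96e-06). The other probe sets of Dtx3l and Ifnar1 were not called with age (adjusted p = 0.574 and 0.749). Of the 2 others of Ifnar2, 1 was called higher in adults (0.52 ± 0.19, adjusted p = 0.0466) and 1 was not called (adjusted p = 0.972). What distinguishes the transcripts these probe sets match was not tested.

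**Figure D4:**
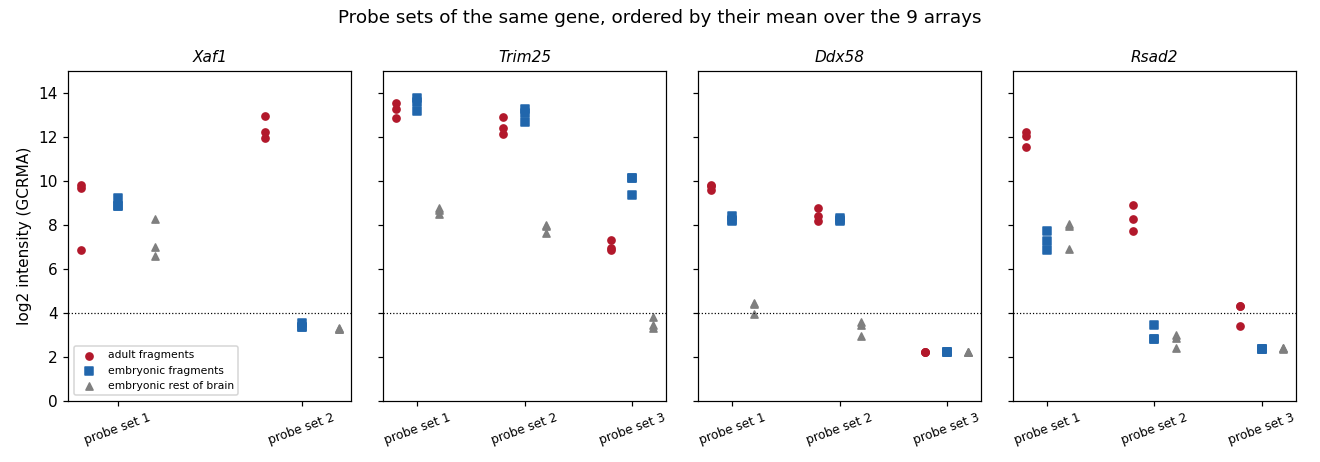
Log2 intensity (vertical axis, GCRMA) of every probe set that names Xaf1, Trim25, Ddx58 or Rsad2 alone, ordered within a gene by the mean over the 9 arrays, with 1 point per array and the 3 groups by colour and shape. For Xaf1 the groups lie close together in the first probe set and adults lie at 11.96 to 12.95 alone in the next.

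Genes that lie beside each other did not always move together. In the RefSeq gene order (GRCm38.p6, used for order alone) no protein-coding gene lies between Ifnar1 and Ifngr2, and 1 lies between Ifnar2 and Ifnar1. Ifngr2 was 12.5-fold lower in adult than in embryonic fragments, while its neighbour Ifnar1 was 1.5-fold higher. Rsad2 lies beside Cmpk2, a mitochondrial nucleotide kinase, and these moved alike with age. Cmpk2 read 11.69, 11.56 and 11.40 in adults and 6.64, 5.66 and 7.15 in embryonic fragments (5.07 ± 0.32, 33.6-fold, adjusted p = 3.39e-06). Against rest of brain, at 7.89, 7.99 and 8.11, Cmpk2 was lower in embryonic fragments (-1.51 ± 0.32, adjusted p = 0.00277), as Ifit2 was. Ifit2 and Ifit3 are direct neighbours too, with measured values of Ifit2 and background values of Ifit3 in the embryonic groups.

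**Figure D5:**
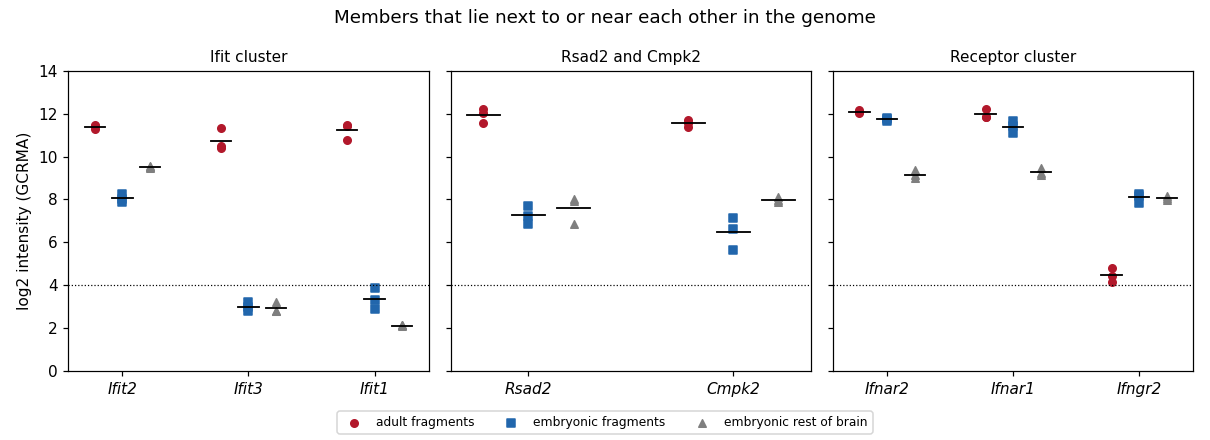
Log2 intensity (vertical axis, GCRMA) of members that are neighbours in the genome and of Cmpk2 beside Rsad2, with 1 point per array, a bar at each group mean and the dotted background line at 4. Adult arrays lie highest for the Ifit genes, Rsad2 and Cmpk2, and lowest for Ifngr2, at 4.14 to 4.79.

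Other genes of the interferon pathway were taken from a list of 87, of which 73 had a probe set of their own and 52 were tested. In embryonic fragments 38 of the 52 were higher than in rest of brain (73.1%, against 28.9% of all tested genes), 2 were lower and 12 were not called. Of the 38, 11 were under 4 on every rest of brain array and could not come out lower. In adult fragments 31 were higher than in embryonic ones (59.6%, against 27.4% of all tested genes), 4 were lower and 17 were not called. Of these, Dhx58, Oas1c, Ifi204, Sp100 and Nlrc5 were under 4 on every embryonic array. They passed the filter through the adult arrays alone and could only come out higher in adults. Against rest of brain 51 were higher in adults (98.1%, against 33.1% of all tested genes). Of these 51, 16 were under 4 on every rest of brain array and could not come out lower. Adar, an RNA-editing enzyme, was lower. That Adar call was lost in a number of other settings, and so was its lower call in embryonic fragments (-0.72, adjusted p = 0.0399), which turned to 0.82 with the mean of its probe sets (adjusted p = 0.00674).

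The kinases that sit at the receptors had small differences between the ages. Jak1 was 1.22 ± 0.10 above rest of brain in embryonic fragments (adjusted p = 5.32e-06) and -0.23 apart with age (adjusted p = 0.0708). Tyk2, the kinase at IFNAR1, was 2.11 ± 0.21 above rest of brain (adjusted p = 2.58e-05) and -0.03 apart with age (adjusted p = 0.927). Jak2, which serves IFNGR2, was 0.37 above rest of brain (adjusted p = 0.0529) and 0.47 ± 0.15 higher with age (adjusted p = 0.0253). With the replicate number as a block, the Jak2 difference from rest of brain was called, over all 9 arrays (adjusted p = 0.0184) and over the 6 embryonic arrays (0.0237), and it was called in 5 other settings (0.0233 to 0.0361). The Jak2 call with age was lost without adult replicate 1 (adjusted p = 0.0818) or 2 (0.0742), without embryonic fragment replicate 2 (0.0588) or 3 (0.0901), with the mean of its probe sets (0.081) and with the 2 groups fitted alone (0.0561). The mean of the probe sets of Jak1 was called lower in adults (-1.11, adjusted p = 9.14e-04).

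Other pathway genes were named by their fitted differences, also where 1 group was at background, so their order is not one of measured folds. Between embryonic fragments and rest of brain, Lgals9, a galectin, read 10.51, 10.53 and 10.45 in fragments and was under 4 in rest of brain (at least 90.1-fold, adjusted p = 7.36e-10). Helz2, a helicase, was at least 92.8-fold higher (adjusted p = 1.04e-07) and Slfn5, a Schlafen protein, at least 29.7-fold (adjusted p = 5.46e-07). Trim30a, a TRIM protein named here after its values were seen, had a measured difference of 60.9-fold (adjusted p = 1.73e-09). Between adult fragments and rest of brain the ranking named Ifi47, Helz2 and Trim30a. Ifi47 read 11.92, 11.99 and 12.12 in adults and was under 4 in rest of brain (at least 258-fold, adjusted p = 1.2e-09). With age the same ranking named Nlrc5, a regulator of MHC class I genes, Gbp6 and Cmpk2. Nlrc5 read 7.10, 8.43 and 8.71 in adults and was under 4 on all embryonic arrays (at least 16.9-fold, adjusted p = 2.31e-06). Gbp6 read 11.50 ± 0.44 in adults and 6.13 ± 0.26 in embryonic fragments (SD, n = 3 each), without overlap (5.37 ± 0.22, 41.5-fold, adjusted p = 2.5e-07). Lower in adults were Stat3 (-0.92, adjusted p = 2.91e-04), Lgals9 (-0.62, adjusted p = 0.00271), Irf3 (-0.56, adjusted p = 0.00134) and Nampt (-0.52, adjusted p = 0.00293). Stat3 was called higher, by 0.62, when probe sets marked as shared were left out (adjusted p = 0.0107). With the mean of the probe sets the calls of Stat3 (-0.07, adjusted p = 0.566) and Irf3 (-0.53, adjusted p = 0.051) were lost. The interferon genes Ifnb1, Ifna2, Ifna4 and Ifng were under 4 on every array.

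Markers of other cell types moved with some of these steps. All 9 endothelial markers were higher in embryonic fragments than in rest of brain, and between the ages 2 were higher and 2 lower. Their summed level (log2) was 17.43 to 17.44 in adult, 17.23 to 17.41 in embryonic fragments and 11.84 to 12.17 in rest of brain. All 7 tested pericyte markers were higher in embryonic fragments than in rest of brain too, with a median difference of 2.72, and between the ages 2 were higher and 2 lower. All 17 microglia and macrophage markers were also higher in embryonic fragments than in rest of brain, with summed levels of 16.08 to 17.44 against 13.46 to 13.69. In adults it was 16.55 to 17.21. Lower in embryonic fragments than in rest of brain were 8 of 8 neuron, 5 of 5 astrocyte and 4 of 4 oligodendrocyte lineage markers tested. So were 2 of 2 granulocyte, 5 of 6 fibroblast and 1 of 5 choroid plexus markers, while 4 of 5 smooth muscle markers were higher. Among all tested genes 28.9% were higher and 37.2% were lower in that comparison. With age P2ry12, Tmem119 and Itgam of microglia were higher, Mrc1, Cd163, Lyve1 and Pf4 of border macrophages were lower, and 10 were not called. Smooth muscle markers were higher in adults in 4 of 5 cases and lower in 1 (summed level 15.50 to 15.65 against 12.38 to 12.93). Of 4 tested markers of the oligodendrocyte lineage, Mbp, a myelin gene, was 11.1-fold higher in adult than in embryonic fragments (adjusted p = 2.29e-04). Of the others, 1 was lower and 2 were not called. The 5 tested astrocyte markers were higher in adults as well (12.92 to 13.64 against 10.18 to 11.51 over the 6 listed), and so were all 5 of choroid plexus (16.79 to 16.87 against 15.70 to 16.22). Compared with rest of brain, 4 of the 5 astrocyte markers were lower in adults. Of 11 lymphocyte markers only Cd4 was tested, and it was not called. The B cell genes Ms4a1 and Cd79b reached 4 on too few arrays to be tested. Ms4a1 read 4.73, 3.75 and 6.67 in adults and was under 4 on every embryonic array, so that adults were at least 2.07-fold higher without overlap. Cd79b reached 4.25 on adult replicate 3 and 4.50 on embryonic fragment replicate 3. The T cell, NK cell and B cell genes Cd3e, Cd3g, Cd3d, Cd2, Cd8a, Nkg7, Gzma and Cd79a were under 4 on every array. The part of these other cell types in the members' results was not tested.

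Among the adult arrays replicate 3 read highest for 22 of the 34 members that were above 4 on all 3 adult arrays, replicate 2 for 10 and replicate 1 for 2. The medians over these members were 11.20, 11.24 and 11.45 on replicates 1, 2 and 3. The share of all genes highest on each array was not counted. On the same arrays the summed level of microglia and macrophage markers was 16.55, 16.73 and 17.21, and that of endothelial markers 17.43, 17.44 and 17.43. Their part in the order of the arrays was not tested. With adult replicate 3 left out, 20 members were still higher in adult than in embryonic fragments. Ifit1, Ifit3 and Iigp1 then no longer reached 4 on 3 arrays, as when any adult array is left out, and Ifnar2 and Parp9 lost their calls. Over all probe sets the arrays had medians of 3.58 to 3.67, and 47.4% to 48.1% of probe sets reached 4. The number of arrays limits the precision.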

How the data were processed

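For each array the authors deposited a log2 value per probe set. Per the submitters' processing notes, R 2.4.1 and GCRMA 2.6.0 were used. That they are log2 was read from their range. GCRMA equalizes the arrays by quantiles, so a change in total RNA per cell cannot be seen. About 100 ng of total RNA was amplified and labelled with biotin, per the labels' protocols. Of 45101 probe sets 34958 name 1 gene, 932 several and 9211 none, and 34754 were found by Entrez identifier in RefSeq, which changed 0 symbols. The table held 0 per-sample columns that were not used, and 0 pairs of arrays were identical. Samples were grouped by title.

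Each gene was represented by its probe set of largest average across the 9 arrays, and was tested if 3 or more arrays reached 4. limma 3.58.1 in R 4.3.3 (lmFit, eBayes, 2-sided) was fitted to all 9 arrays and checked on simulated data. Folds are back-transformed log2 differences. The members, their order by role, the pathway and marker lists and the rule for named genes were chosen with earlier results of these data known. By that rule all members are placed by role, and values on every array are given for up to 3 called members per role and comparison, those with the largest differences, no overlap and 6 or more as the mean of the higher group. Receptors and transcription factors are all given. Of the other pathway genes, Jak1, Jak2, Tyk2 and the 3 largest called per direction of each comparison are named under the same conditions. Nampt was added after its values were seen, and so was Trim30a for embryonic fragments against rest of brain. Cmpk2 was named by the rule, and its use as a neighbour of Rsad2 was added after its values were seen.

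Deviations from the group means correlated at 0.19, 0.20 and 0.22 between embryonic fragments and rest of brain of the same replicate number. Between differing numbers of these groups the values were -0.21 to -0.02. Embryonic fragments and adult arrays of the same number gave 0.03, -0.08 and 0.21, and embryonic fragment replicate 1 with adult replicate 2 gave 0.21. Values of this size thus also arose between the ages, so the pairing of the embryonic samples was not established. The main fit used no block, and the replicate block was an alternative. Alternatives changed the normalization, the filter, a floor on low values, the choice of probe sets, the variance prior, the arrays fitted, the block and each array in turn. Scanner files were not analysed here.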

Additional observations from a re-analysis of the deposited data

How the results depend on the processing

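Over the alternatives, 605 values of the members between embryonic fragments and rest of brain kept their direction and their side of the threshold, 5 newly passed it and 3 changed sign. Between the ages 606 kept both, 12 no longer passed, 8 newly passed and 4 changed sign, and between adult fragments and rest of brain 628 kept both and 2 newly passed. The count of members higher in embryonic fragments than in rest of brain ranged from 21 to 29, and that higher in adult than in embryonic fragments from 20 to 26. The lowest counts came from leaving out probe sets marked as shared, where fewer members were measured, or an adult array, where Ifit1, Ifit3 and Iigp1 no longer reached 4 on 3 arrays. Leaving out 1 array at a time gave 1 to 2 members lower in adult than in embryonic fragments, and the mean of the probe sets gave 2. Other pathway genes lower in embryonic fragments than in rest of brain numbered 1 with the mean of the probe sets, with no filter on low values and with the replicate block over the 6 embryonic arrays, and 1 to 2 when 1 array was left out. Those lower in adult fragments than in rest of brain numbered 0 with cyclic loess and with no filter, 3 without probe sets marked as shared, and 0 to 1 with 1 array left out. The replicate block over all 9 arrays gave 28 members higher in embryonic fragments and 25 in adults, as without it, and over the 6 embryonic arrays 29.

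Differences near 0 changed sign. Ifngr2 between embryonic fragments and rest of brain was -0.057 to 0.15 with 1 array left out, and below 0 without embryonic fragment replicate 2 or 3 or rest of brain replicate 2. Ifngr1 with age was -0.14 to 0.32, and below 0 without adult replicate 3 or embryonic fragment replicate 1. Xaf1 with age was 4.37 with the mean of its probe sets, and -0.73 to 0.75 with 1 array left out, above 0 without adult replicate 3. Tyk2 with age was 0.091 with cyclic loess and 0.081 with quantile normalization once more, and -0.18 to 0.053 with 1 array left out, above 0 without adult replicate 1 or 2. Adar was 0.82 between embryonic fragments and rest of brain and 1.02 between adult fragments and rest of brain with the mean of its probe sets, and -0.28 to 0.21 with age when 1 array was left out, below 0 without adult replicate 1 or embryonic fragment replicate 2. Stat3 with age was 0.62 without probe sets marked as shared, and Jak1 between adult fragments and rest of brain was -0.17 with the mean of its probe sets. The cause was not tested. Cyclic loess moved the median of all genes between adult fragments and rest of brain from -0.17 to -0.03. Between the ages 3289 genes were higher and 3565 lower in adults, against 3863 and 3079 with cyclic loess and 3578 and 3318 with quantile normalization once more.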
